A study of Bos taurus with 12 samples.

Results

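Platelet adhesion and coagulation are represented here by 5 genes: ITGB3, ITGA2B, SELP, VWF and F10. Their members are the cytosines of the deposited table that lie in a promoter, exon, intron, untranslated or downstream region of one of these genes. A site inside a gene was given to the gene that holds it, and a promoter site to the gene whose start it flanks. This gave 119 sites of the 216,990 in the table, or of the 92,535 in gene features. ITGB3 held 48 of them, SELP 36, VWF 28, F10 5 and ITGA2B 2.

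Blood came from 12 dairy cows (Bos taurus) of 1 farm, aged 3 to 8 years and kept under the same conditions. The 6 subfertile cows had left the herd within a year of sampling for reproductive complications that nobody had recognised when blood was drawn, and the 6 fertile cows had stayed with no fertility problem. DNA from 1 mL of blood per cow was converted enzymatically and sequenced, and each value below is a methylation level, in percent of the calls that a cow has at 1 cytosine, with positions in the build ARS-UCD1.2. The column names of the table mark the cows that the labels call subfertile with F and those called fertile with R. The labels were followed, and each direction below turns round if those letters stand for the opposite. Read counts are not in the table, so the depth behind each value is unknown and the number of cows limits the precision.

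When a vessel wall is damaged, von Willebrand factor, the product of VWF, unrolls on exposed collagen and tethers passing platelets. P-selectin, the product of SELP, moves from platelet and endothelial granules to the cell surface and binds leukocytes. The integrin subunits encoded by ITGA2B and ITGB3 pair into the platelet fibrinogen receptor, which joins platelets to each other. Factor X, the product of F10, is made mainly in the liver, and its activated form turns prothrombin into thrombin. Mammalian platelets carry no nucleus, so DNA from whole blood comes from its nucleated cells, mostly leukocytes, and no expression was measured. A different mix of cell types and a different methylation level within a type cannot be told apart in such DNA.

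Members were selected on a measured value, the methylation difference between the groups: the authors listed a site only if these same cows differed there, and the 5 genes were chosen by looking at that difference. Levels in subfertile and fertile cows are therefore a description with no test. In the authors' deposited table, the member closest to the difference threshold was the VWF site at 104,264,694, with -25.5 points, and the member closest to the q threshold was the SELP site at 37,281,058, with a q-value of 0.00910. Sites outside those thresholds are not analysed here. By the direction of the authors' deposited table, subfertile cows had higher levels at 65 of the 119 sites and lower ones at 54, and 50.6% of all gene feature sites were higher. Every subfertile cow lay on one side of every fertile cow at 8 sites, 4 higher and 4 lower. Such separation held for 2.93% of deposited sites in gene features (1.73% higher and 1.2% lower) and for 3.1% of all deposited sites (1.94% higher and 1.16% lower), and nothing is read from the count because selection used this contrast. Without fertile cow 2 the count was 22, without subfertile cow 3 or fertile cow 5 it was 13, and over sites with a value in all cows it was 4. The separated sites lay in VWF (4), ITGB3 (2) and F10 (2), and none in SELP or ITGA2B.

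ITGB3 encodes the beta 3 subunit shared by the platelet fibrinogen receptor and the vitronectin receptor. Its sites ran from 46,328,154 to 46,386,433 on chromosome 19, over a transcript on the forward strand from 46,329,945 to 46,392,416, and 46 of the 48 were intronic. The main feature was a stretch of 33 sites at 18 CpG positions in introns 1 and 2, from 14.8 to 27.9 kb past the start, all higher in subfertile cows. Averaged over these sites, the subfertile cows had 54.8% at the lowest, 91.4% at the median and 92.6% at the highest, and the fertile cows 0.323%, 43.6% and 89.5%. The groups overlapped through fertile cow 2, at 89.5%, which lay above subfertile cow 3 at 54.8% and subfertile cow 4 at 86.7%. The other 5 fertile cows, at 46.1% or less, lay below every subfertile cow. The means were 84.8 ± 14.9% in subfertile and 37.7 ± 32.9% in fertile cows (SD, n = 6 each).

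The fertile cows fell onto 3 levels in this stretch. Fertile cow 4 was at 10% or less at all 31 of its sites with a value, and fertile cow 3 at 31 of 33. Fertile cows 1, 5 and 6 lay between 30 and 70% at 23, 26 and 26 of 33 sites. Fertile cow 2 was at 90% or more at 26 of 32 sites, as were subfertile cows 1, 2, 4, 5 and 6 at 21 to 25 sites each. Subfertile cow 3 stayed between 30 and 70% at 24 of 30 sites. Most sites of the stretch thus repeated 1 order of cows, and they are not independent of each other. An exception was the site at 46,345,867 in intron 1, where subfertile cows 1, 2 and 5 had 66.7, 43.8 and 80%, subfertile cows 4 and 6 were listed at 0 and cow 3 had no value, while fertile cow 6 had 5.26% and the other 5 fertile cows were listed at 0.

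Less than 1 kb further into intron 2, from 46,358,555 to 46,359,778, came 6 sites at 3 CpG positions with the opposite direction. Subfertile cows 1, 2, 4, 5 and 6 and fertile cow 2 were listed at 0 at all 6 sites. Subfertile cow 3 averaged 48.9%. Fertile cows 1, 5 and 6 averaged 43.2, 50.3 and 48.5%, and fertile cows 3 and 4 averaged 95.8 and 92.0%. Added to the level of the longer stretch, each cow's mean here came to between 86.7 and 104 points in subfertile and between 89.3 and 98.9 points in fertile cows. The order of the cows was thus turned over between both stretches. The plot of ITGB3 sites by distance shows this crossing.

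**Figure D1:**
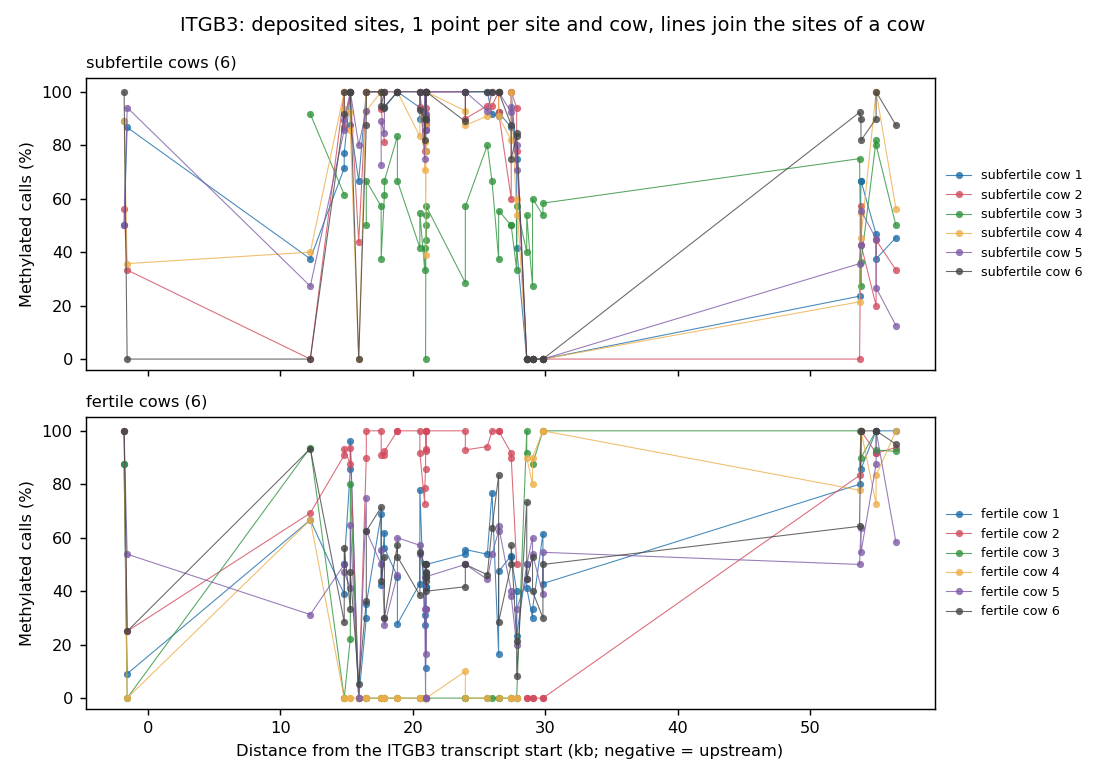
Percent of methylated calls (vertical axis) at the 48 deposited ITGB3 sites by distance from the transcript start in kb (horizontal axis), with 6 subfertile cows in the upper and 6 fertile cows in the lower panel; each point is 1 site in 1 cow and lines join the sites of a cow. Between 14.8 and 27.9 kb fertile cows 3 and 4 lie near 0, fertile cows 1, 5 and 6 near the middle and fertile cow 2 with most subfertile cows near the top, and the order turns over in the 6 sites that follow.

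A further group of ITGB3 sites, 6 in intron 13 from 46,383,686 to 46,386,433, had another order of cows when averaged. Subfertile cows ranged from 33.0 to 90.3% with a median of 53.1%, and fertile cows from 69.0 to 95.9% with a median of 93.3%. By these averages the low fertile cow was cow 5 and the high subfertile cow was cow 6. The 6 sites did not all share that order. At 46,384,933 and 46,384,934, fertile cow 5 had 87.5 and 100%, and subfertile cow 4 had 100% at both. The means were 54.8 ± 21% in subfertile and 89.1 ± 10.1% in fertile cows (SD, n = 6 each). The promoter sites of ITGB3, at 46,328,154 and 46,328,384, went in different directions: 72.3 ± 22.7% against 95.8 ± 6.45% at the first (n = 6 each) and 49.97 ± 39.6% (n = 5) against 18.8 ± 20.5% (n = 6) at the second, subfertile cows first.

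At 2 ITGB3 sites the groups did not overlap. At 46,345,235 in intron 1, 5 subfertile cows were at 100% and subfertile cow 4 at 92.3%, while the fertile cows ran from 0 to 87.5% with a median of 37.3%. Fertile cows 1 and 2, at 85.7 and 87.5%, came closest to the subfertile cows. On the other strand of this CpG, at 46,345,236, the groups overlapped, with fertile cow 1 at 96.2% and subfertile cow 4 at 85.7%. At 46,357,795 in intron 2, subfertile cows ran from 41.7 to 84.6% with a median of 68.9%, and fertile cows from 0 to 33.3% with a median of 8.33% (n = 5). Fertile cow 2, high across the rest of the stretch, had no value at that site. On the other strand of this CpG, at 46,357,794, that cow had 50% and subfertile cow 3 had 33.3%, so the groups overlapped. The ITGB3 site with the largest deposited difference, at 46,350,917 in intron 2, overlapped: 90.9 ± 9.55% in subfertile (n = 5) and 29.0 ± 35.2% in fertile cows (n = 6), with fertile cow 2 at 85.7%. Subfertile cow 3 had no value there. On the other strand of this CpG, at 46,350,918, that cow had 0 and subfertile cow 4 had 38.9%. The means on that strand were 65.0 ± 38.0% in subfertile and 24.7 ± 37.7% in fertile cows (SD, n = 6 each).

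ITGA2B encodes the alpha IIb subunit, the partner of beta 3 in the fibrinogen receptor and largely restricted to the megakaryocyte lineage. Its 2 sites were both strands of 1 CpG at 44,187,713, in the promoter window before the start of a reverse-strand transcript (44,172,212 to 44,185,276) on chromosome 19. On the forward strand, subfertile cows 1 and 5 were at 54.5% and the other 4 at 0, while fertile cows 3, 1, 4 and 5 were at 94.1, 90.9, 70 and 68.8% and fertile cows 2 and 6 at 0. The groups overlapped at 0. Over both strands the means were 17 ± 26.7% in subfertile and 47.8 ± 40.1% in fertile cows (SD, n = 6 each), so the spread within each group was about as large as the gap between them. The medians over cows, 0 in subfertile and 55.3% in fertile cows, were 55.3 points apart.

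SELP encodes P-selectin, the adhesion molecule of activated platelets and endothelium. Its 36 sites lay from 37,250,830 to 37,284,172 on chromosome 16, in a reverse-strand transcript from 37,241,577 to 37,284,986, with 24 in promoter windows of its annotated transcripts and 12 in introns. Averaged over all of them the groups were 4.06 points apart, with 58.9 ± 13% in subfertile and 54.9 ± 10.1% in fertile cows (SD, n = 6 each), and with each CpG counted once the difference turned to -1.88 points. That mean joined 19 sites that were higher and 17 that were lower, interleaved along the gene. In the higher sites the subfertile cows had 44.4% at the lowest, 91.9% at the median and 94.6% at the highest, and the fertile cows 1.54%, 44.1% and 92.5%. In the lower sites the subfertile cows had 0, 40.5% and 48.9%, and the fertile cows 0, 71.4% and 95.5%. No SELP site separated the groups.

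As in ITGB3, the averages of the cows lay near the bottom, the middle or the top of the scale, but here the higher and the lower sites ordered the cows differently. Fertile cows 1 and 4 averaged 1.54 and 3.16% over the higher and 95.1 and 95.5% over the lower sites. Subfertile cows 2 and 4 and fertile cow 6 were the reverse, at 92.3, 94.6 and 92.5% over the higher sites and at 0 over the lower ones. Subfertile cows 1, 3 and 6 and fertile cow 2 were high over the higher sites (91.6, 90.2, 92.2 and 92.1%) and at the middle over the lower sites (48.4, 40.6, 48.9 and 45.7%). Subfertile cow 5 and fertile cow 3 were at the middle in both, at 44.4 and 49.6% over the higher and 40.3 and 48.2% over the lower sites, and fertile cow 5 had 38.6 and 94.6%. Both averages of a cow added up to between 84.8 and 141 points in subfertile and between 92.5 and 138 points in fertile cows, a wider range than for ITGB3. Each combination except the one of fertile cows 1 and 4 and the one of fertile cow 5 was found in cows of both groups.

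**Figure D2:**
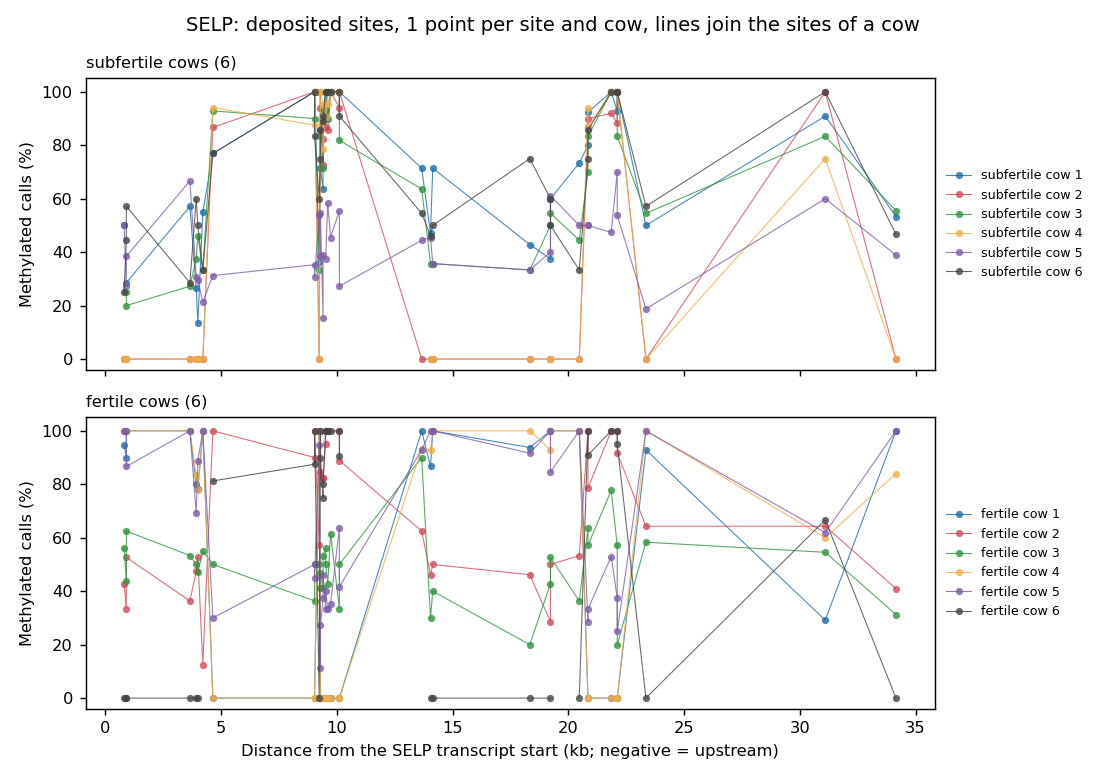
Percent of methylated calls (vertical axis) at the 36 deposited SELP sites by distance from the transcript start in kb (horizontal axis), with 6 subfertile cows in the upper and 6 fertile cows in the lower panel; each point is 1 site in 1 cow and lines join the sites of a cow. Lines jump between levels because the 19 higher and the 17 lower sites alternate along the gene, with subfertile cows 2 and 4 and fertile cow 6 at 0 in every lower site that has a value.

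The SELP site with the largest deposited difference lay in intron 6 at 37,262,870, where the subfertile cows ran from 53.8 to 100% with a median of 100% and the fertile cows from 0 to 95.0% with a median of 22.5%. The 3 sites closest to the transcript start, from 37,284,075 to 37,284,172, were all lower in subfertile cows. Another 12 sites outside the rule were intergenic and nearest to SELP. The 7 of these that were higher had 68.5 ± 27.2% in subfertile and 32.6 ± 22.6% in fertile cows, and the 5 that were lower had 46.1 ± 28.0% and 85.0 ± 14.4% (SD, n = 6 each).

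VWF encodes von Willebrand factor, made in endothelial cells and megakaryocytes. Its 28 sites spread over 107 kb of chromosome 5, from 104,223,552 to 104,330,964, in a forward-strand transcript from 104,221,024 to 104,345,680. Of these, 26 were intronic, 1 lay in exon 30 and 1 in a promoter window, and 20 were lower and 8 higher in subfertile cows. Over the 20 lower sites subfertile cows ran from 47.9 to 92.5% with a median of 56.3%, while fertile cows lay close together, from 89.6 to 95.1% with a median of 92.8%. The means were 62.5 ± 17% in subfertile and 92.4 ± 1.83% in fertile cows (SD, n = 6 each). Subfertile cow 3, at 92.5%, lay inside the fertile range, and the other 5 lay below it.

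A dense cluster in intron 13 held 9 of the lower sites within 0.513 kb, from 104,264,220 to 104,264,732. Subfertile cows averaged 53.7 to 93.3% over the cluster with a median of 62.0%, and fertile cows 91.5 to 96.6% with a median of 95.1%. Subfertile cows 3 and 5 had 93.3 and 87.9%, and subfertile cows 1, 2, 4 and 6 had 53.7 to 64.9%. In introns 21 and 22, 4 sites gave 31.1 to 97.7% with a median of 46.1% in subfertile cows and 91.2 to 96.4% with a median of 93.8% in fertile cows. There subfertile cows 3 and 4 stood at 97.7 and 89.8%, so the cows that stayed near the fertile level were not the same in both places. The 3 lower sites of introns 37 and 38 had 38.5 to 77.9% in subfertile and 90 to 96.5% in fertile cows, and their means did not overlap. They were pooled by the direction of their group difference, so nothing is read from that separation. In intron 43, subfertile cows 3 and 4 were again high, at 97.9 and 97.8%, and the other 4 had 36.2 to 58.8%, while fertile cows ran from 90 to 100%.

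**Figure D3:**
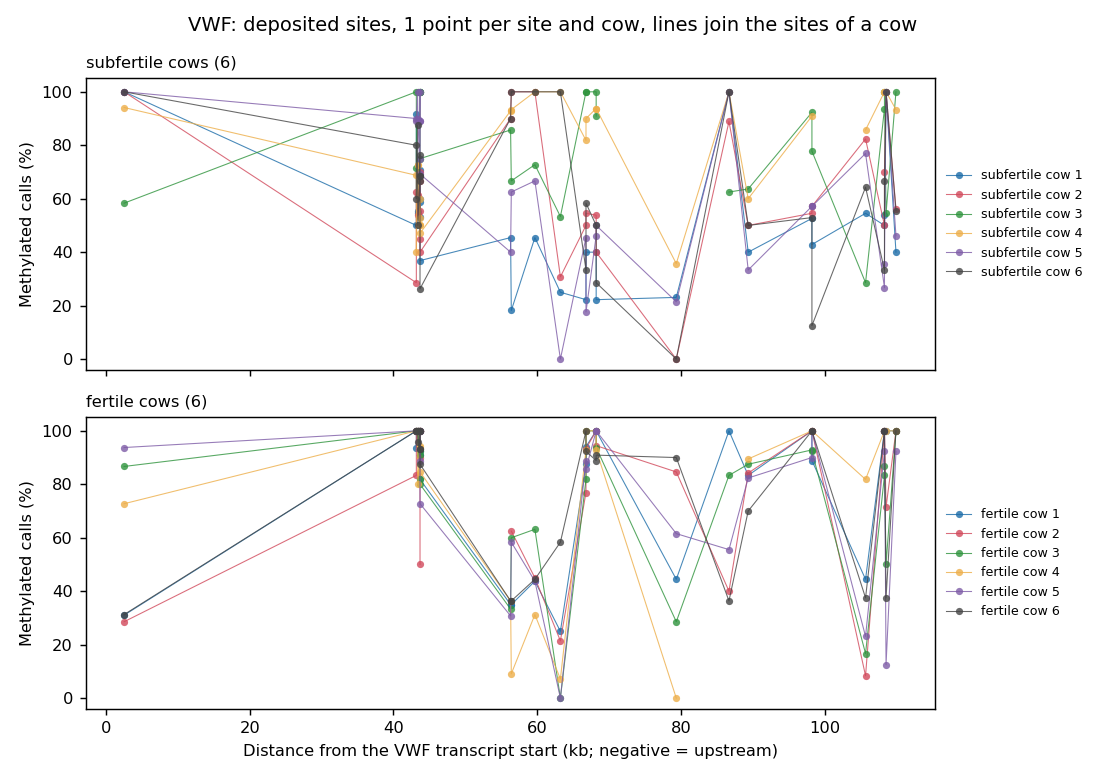
Percent of methylated calls (vertical axis) at the 28 deposited VWF sites by distance from the transcript start in kb (horizontal axis), with 6 subfertile cows in the upper and 6 fertile cows in the lower panel; each point is 1 site in 1 cow and lines join the sites of a cow. Fertile cows lie close together near the top at most sites that were lower in subfertile cows, while the subfertile cows spread over the scale.

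At 4 VWF sites the groups were apart. In intron 13, the site at 104,264,221 had 40 to 91.7% with a median of 67.0% in subfertile cows and 93.8 to 100% with a median of 100% in fertile cows. The site at 104,277,334 in intron 17 was the higher one: subfertile cows had 40 to 92.9% with a median of 87.9%, and fertile cows 30.8 to 36.4% with a median of 35% (n = 5). Fertile cow 2 had no value there. At 104,277,435 in the same intron, where the groups overlapped, that cow and subfertile cow 5 had 62.5% and subfertile cow 1 had 18.2%. Intron 37 had a site at 104,310,401 with 33.3 to 63.6% in subfertile and 70 to 89.5% in fertile cows. Intron 38 had one at 104,319,270 with 12.5 to 77.8% in subfertile (n = 5) and 88.9 to 100% in fertile cows. At the intron 13 and intron 17 sites the nearest cows of the groups were close, with subfertile cow 1 at 91.7% against fertile cow 1 at 93.8%, and subfertile cow 5 at 40% against fertile cows 4 and 6 at 36.4%. On the other strand of the intron 13 CpG, at 104,264,220, the groups overlapped, with subfertile cow 3 at 100% and fertile cow 2 at 83.3%. They also overlapped on the other strand in intron 38, at 104,319,269, with subfertile cow 3 at 92.3% and fertile cow 5 at 90%. Only 1 strand was listed for the sites in introns 17 and 37.

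The 8 higher VWF sites were scattered from 2.53 to 109 kb past the start. Averaged over them, subfertile cows had 60.3 to 95.8% with a median of 77.4%, and fertile cows 39.6 to 51.8% with a median of 44.1%, so the means did not overlap. These sites were pooled by the direction of their group difference, so nothing is read from that separation. Of these sites only the one at 104,277,334 separated the groups by itself. Upstream of VWF, 15 intergenic sites outside the rule, from 104,190,378 to 104,217,387, were also higher, with 88.8 ± 12.6% in subfertile and 58.6 ± 16.8% in fertile cows (SD, n = 6 each). At the promoter window site, 104,223,552, subfertile cow 3 had 58.3% and the other 5 had 94.1 to 100%, while fertile cows 1, 2 and 6 had 28.6 to 31.3% and fertile cows 3, 4 and 5 had 72.7 to 93.8%.

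F10 encodes factor X, the protease where the intrinsic and extrinsic arms of coagulation meet. Its 5 sites lay from 86,496,787 to 86,505,918 on chromosome 12, around a forward-strand transcript from 86,499,761 to 86,514,706. It was the only gene of the 5 whose mean over all sites separated the groups, with 55.6 to 77.3% and a median of 70% in subfertile cows against 30.3 to 55.1% and a median of 39.7% in fertile cows. Among all 7,951 genes with a symbol and a mean in all cows, 3.38% were separated in this way. The lowest subfertile mean, 55.6% in cow 5, was barely above the highest fertile mean, 55.1% in cow 2. That subfertile mean leaves out the only lower site, at 86,500,865, where cow 5 had no value and the other subfertile cows had 0 to 20%, so the separation of the 5-site means rests on a missing value. Over the 4 higher sites, all with a value in every subfertile and fertile cow, subfertile cows had 55.6 to 96.7% with a median of 87.5%, and fertile cows 12.9 to 53.9% with a median of 32.4%. These 4 sites were pooled by the direction of their group difference, so nothing is read from that separation. Among them only the site at 86,496,787 separated the groups by itself. Over all 5 sites subfertile means averaged 66.6 ± 8.90% and fertile means 41.2 ± 9.60% (SD, n = 6 each), a difference of 25.5 points. The difference was 47.4 points over the 4 sites with a value in all cows, which are the same 4 higher sites.

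The 3 sites before the F10 start were higher in subfertile cows. At the outermost, 86,496,787, subfertile cows had 57.1 to 100% with a median of 83.3%, and fertile cows 0 to 50% with a median of 31.7%, and the groups did not overlap. At 86,500,865, 1.10 kb inside the transcript but within its promoter window, the direction was opposite. Subfertile cows 1, 3, 4 and 6 were listed at 0 and cow 2 at 20%, while fertile cows 5, 2 and 3 had 54.5, 60 and 88.9% and fertile cows 4 and 6 had 100%. Subfertile cow 5 and fertile cow 1 had no value there. In the authors' deposited table this site had the largest difference of all 119 members, -72.8 points, with a q-value of 1.79e-09.

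**Figure D4:**
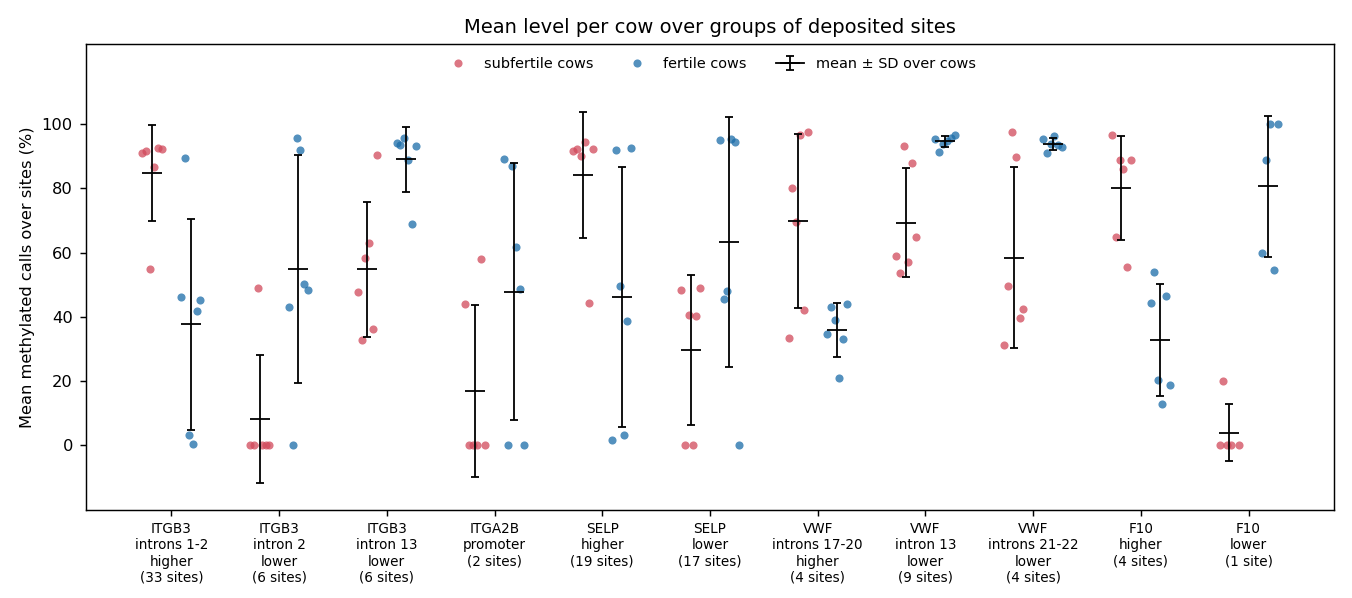
Mean percent of methylated calls per cow (vertical axis) over groups of deposited sites in the 5 genes (horizontal axis, with the number of sites), with subfertile cows in red on the left and fertile cows in blue on the right of each pair; black marks give the mean ± SD over cows. Fertile cows spread from 0.323 to 89.5% in the longer ITGB3 stretch but only from 91.5 to 96.6% in the VWF intron 13 cluster.

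Across the members, the levels themselves had a shape that the rule did not ask for. A site was called 3-level when at least 1 cow had 10% or less, at least 1 had 30 to 70% and at least 1 had 90% or more. This held for 79 of the 119 members (66.4%), against 63.4% of all deposited sites in gene features, so the members were near the rest of the table. The genes differed among themselves, with 33 of 36 SELP sites, 39 of 48 ITGB3 sites, 3 of 5 F10 sites and 3 of 28 VWF sites. The median SD within a group was 18.4 points over VWF sites and 28.5 points over SELP sites. A thymine in a cow's own DNA is read as an unmethylated call after conversion, so sequence differences and methylation differences cannot be told apart in these values.

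Both strands were deposited for 34 of the 85 CpG positions, and they served as paired readings of the same place. In all 34 both strands had the same direction, as they did at all 47,992 such positions in the table. Each strand was listed only if it passed the thresholds in these same cows, so agreement in direction was largely fixed beforehand. Both strands of a member CpG were within 10 points of each other in 273 of 394 cow values (69.3%), against 66.9% over all paired positions, and the median gap was 5.61 points. Neighbouring CpG positions of a member, up to 10 kb apart, were also compared through the deviation of each cow from its group mean, which leaves out the group difference. Pearson's r over the cows had a median of 0.91 over 55 neighbours with the same direction and of -0.44 over 20 neighbours with opposite directions. Over all genes with a symbol the medians were 0.87 and -0.44. By gene, the median over neighbours of the same direction was 0.94 in SELP, 0.90 in ITGB3, 0.67 in VWF and 0.39 in F10, the last from 2 pairs. Neighbouring sites share cows and libraries, and no p-value is attached to these correlations.

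The same deviations showed how far along a chromosome a cow pattern reached. For the ITGB3 stretch in introns 1 and 2, deposited sites with an absolute r of at least 0.8 with its mean were counted by distance. Their share was 28.6% from 1 to 50 kb, 12.2% from 50 to 200 kb and 66.8% from 200 kb to 1 Mb away. On other autosomes it was 0.461%. The class from 1 to 50 kb also takes in sites less than 1 kb away. Its 6 sites of 21 that reached this r all lay in the opposite stretch of ITGB3 intron 2. The share thus dropped and came back. From 46,402,508 to 46,498,414 only 6 of 65 sites shared the pattern, and from 46,507,107 to 46,596,514 11 of 19 did, all with the same sign. From 46,601,246 to 46,885,384, beginning 209 kb past the end of ITGB3, 242 of 248 sites (97.6%) did, 117 of them with the opposite sign. These windows were chosen after their values were seen. They included all 25 deposited sites of EFCAB3, 16 with the same sign and 9 with the opposite one. For the higher SELP sites from 4.65 to 10.1 kb past the start, the shares were 14.3% from 1 to 50 kb, 7.45% from 50 to 200 kb and 4.21% from 200 kb to 1 Mb. All 7 sites behind the first of these shares lay in SELP itself. The lower SELP sites gave 5.56% from 1 to 50 kb and 0 of 95 and 0 of 209 sites in the next distances. For the VWF intron 13 cluster, 0 of 13 sites from 1 to 50 kb and 0 of 41 from 50 to 200 kb reached this r, against 0.746% on other autosomes. The VWF sites of introns 21 and 22 gave 17.4% from 1 to 50 kb, 22.5% from 50 to 200 kb and 1.06% on other autosomes.

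**Figure D5:**
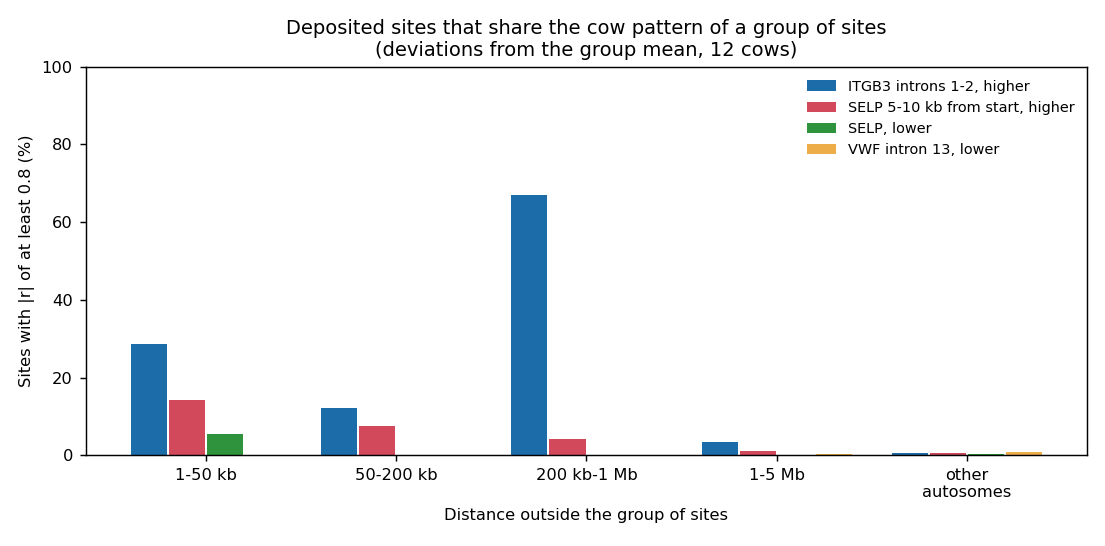
Share of deposited sites (vertical axis, percent) whose deviations from the group mean over 12 cows had an absolute Pearson r of at least 0.8 with the mean of a group of ITGB3, SELP or VWF sites, by distance outside that group (horizontal axis). The ITGB3 share drops to 12.2% at 50 to 200 kb and is 66.8% at 200 kb to 1 Mb, while the VWF cluster has none from 1 to 200 kb. The class from 1 to 50 kb also takes in sites less than 1 kb away, and its ITGB3 share comes only from the opposite stretch of intron 2.

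By the likeness of their means over gene feature sites, again as deviations from the group mean over 12 cows, the gene closest to ITGB3 among 4,775 compared was EFCAB3 on the same chromosome (r = 0.96), followed by TPCN2 (0.88) and XRCC2 (0.86) on other chromosomes. For ITGA2B it was GPATCH8 on the same chromosome (0.97), followed by FTO (0.83) and PTPRCAP (0.82). For VWF, the closest were GTF2IRD2, ZCWPW1 and GTF2IRD1 (0.94, 0.93 and 0.93), all on chromosome 25. SELP was closest to CUL1 (0.87), F10 (0.83) and FAM107B (0.83), and F10 to USP49 (0.86), OPALIN (0.84) and ASB13 (0.83). The SELP and F10 means each join higher and lower sites, and in SELP these order the cows differently. No link between SELP and F10 is read from their likeness. Each r is among the 3 highest of at least 4,775 for its member, and the top of so many can be high without any link. These values describe 12 cows and carry no p-value.

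Other genes of the pathway were taken from lists by textbook function. Of 48 further platelet genes, 23 had a deposited site in a gene feature, with 51 sites higher and 48 lower in subfertile cows, and the median of the gene differences was 14.4 points. Of 40 further coagulation and fibrinolysis genes, 20 had a site, with 111 higher and 140 lower, and a median of -8.94 points. Over all genes with a symbol the median was 1.70 points. The groups were apart at 6 of 99 platelet and 5 of 251 coagulation sites, and at 2.93% of all gene feature sites as given above.

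F13A1, the subunit of factor XIII that crosslinks fibrin, held 55 sites, 32 higher and 23 lower, and F5, the cofactor of activated factor X, held 50, 12 higher and 38 lower. TFPI, the inhibitor of the tissue factor pathway, had 30 higher and 10 lower sites. RUNX1, a transcription factor of megakaryocyte development, had 14 higher and 16 lower sites, and 4 of them separated the groups. The one at 147,048,340 on chromosome 1, with the largest difference of the 4 in the authors' deposited table, had 79.5 ± 10.1% in subfertile and 37.8 ± 10.2% in fertile cows (SD, n = 6 each). In the intron of F5 at 37,221,546, on chromosome 16 close to SELP, subfertile cows had 85.5 ± 15.0% (n = 5) and fertile cows 45.9 ± 10.5% (n = 6), also without overlap. FGB, the fibrinogen beta chain, had 20 lower sites and no higher one, with 71.0 ± 15.9% in subfertile and 98.5 ± 3.71% in fertile cows at its separated site (n = 6 each). At F2RL2, the gene of protease-activated receptor 3, a promoter site at 7,854,031 on chromosome 10 had 69.1 ± 12.5% in subfertile and 34.8 ± 13.5% in fertile cows (n = 6 each). THBS1, the platelet granule protein thrombospondin 1, had 70.5 ± 22.8% and 98.4 ± 2.54% at its separated promoter site, and F13A1 had 66.0 ± 25.3% and 97.6 ± 3.69% at its separated intron site, subfertile cows first (n = 6 each).

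F7, which encodes the factor VII that activates factor X, lies just before F10 on chromosome 12 and had both strands of 1 intronic CpG separated. At 86,495,423, before the outermost F10 site, subfertile cows had 63.6, 87.5, 88.9, 100 and 100% with no value in cow 6, and fertile cows 1 and 2 had 35.7 and 42.9% and the other 4 were listed at 0. On the other strand subfertile cows ran from 37.5 to 100% and fertile cows from 0 to 30% (n = 5). Fertile cows 3 and 4, at 0 there, were also at 0 at the outermost F10 site, where fertile cows 5 and 6 had 33.3 and 30%.

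Markers of blood and other cell types did not allow a check of the cell mix, because only sites selected for the group difference were available. Of the listed genes, 0 of 5 megakaryocyte and platelet markers and 0 of 3 monocyte markers had a deposited site. T cell markers had 5 higher and 4 lower sites, B cell markers 11 and 3, natural killer cell markers 6 and 9, neutrophil markers 1 and 1 and erythroid markers 18 and 3. Endothelial markers had 15 higher and 18 lower sites and hepatocyte markers 4 and 3. The 21 erythroid sites came from 2 of the 5 listed genes, so they are not separate readings. Over these sites, subfertile cows averaged 21 to 86.5% and fertile cows 12.5 to 53.3%. Their part in the levels of the 5 genes was not tested. Over the whole table, values were missing at 1.04 to 4.88% of sites in subfertile cows, with the most in cow 3, and at 0.669 to 2.26% in fertile cows.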

How the data were processed

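DNA of 12 cows was analysed from 1 deposited table. Per the file headers it holds, per cytosine, the percent of methylated calls in each cow, the authors' group means, a difference between the groups in percentage points, q-values and p-values, and an annotation. The authors' deposited difference and distance to the nearest start were read as scores, since how the difference was weighted is not stated. Tools named, per the submitters' processing notes, are ChIPseeker 1.32.1, DRAGEN, Bismark and fastp 0.23.1, with ARS-UCD1.2 as the build. Neither the test nor the read minimum of the deposited calls is given in the sources used here. All listed sites had an absolute difference above 25 points and a q-value below 0.01.

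Sites inside a gene were assigned by the gene identifier in the annotation, other sites by the deposited symbol. Per-cow values were averaged over sites and then over cows, leaving out blanks. Sites of 1 gene and direction at most 10 kb apart formed a stretch. Since selection used the group contrast, no group test was run. The members and lists were chosen with earlier results of these data known. Cows were numbered in accession order. None of the 66 pairs of cows had identical values. Member sites whose groups did not overlap and the site with the largest deposited difference were named in each gene, as were list genes with such sites or the most sites, and the 3 genes most like each member. Functions were checked on simulated data. Python 3.11.15, numpy 2.4.6 and pandas 2.3.3 were used. Alternatives covered the host gene rule, thresholds, strands, missing values, averages and leaving out each cow.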

Additional observations from a re-analysis of the deposited data

Results flagged for a closer look

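Single cows far from the rest of their group were looked for with Dixon's criterion in 50 groups of averaged site values and 22 groups at single sites, which gave 8 and 5 cases. For normally distributed values, chance alone gives such a case in about 1 of 20 groups. The values here are percentages that often tie at the ends of the scale, so that rate need not hold for them. Averages that share sites are not separate cases.

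Subfertile cow 3 averaged 54.8% over the longer ITGB3 stretch, against 86.7 to 92.6% in the other subfertile cows, and 54.8% over all higher ITGB3 sites, against 85.2 to 92.6%. In the 6 lower sites that follow in intron 2 the same cow had 48.9% and the others 0. It also had 41.6% over 2 higher VWF sites in introns 42 and 43, against 77.3 to 92.9%. Fertile cow 5 had 69.0% over the ITGB3 sites of intron 13, against 89.0 to 95.9% in the other fertile cows.

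Subfertile cow 5 averaged 55.2% over the 6 higher SELP sites of the more distant stretch, 39.1% over the 13 of the nearer one and 44.4% over all 19. The other subfertile cows had 86.7 to 93.5%, 91.1 to 95.5% and 90.2 to 94.6% there. At the SELP site at 37,262,870 it had 53.8%, against 83.3 to 100%.

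At single sites, subfertile cow 4 had 92.3% at 46,345,235 in ITGB3, where the other subfertile cows had 100%. Fertile cow 1 had 93.8% at 104,264,221 in VWF, where the other fertile cows had 100%, and fertile cow 6 had 70% at 104,310,401 in VWF, against 82.4 to 89.5%. Subfertile cow 2 had 20% at 86,500,865 in F10, where the other subfertile cows with a value had 0.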

How the results depend on the processing

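The members were described under other rules for sites, strands, missing values and averages, and without each cow in turn. Of these values 106 moved by less than the spread between cows or, for counts, stayed within 1.5 times, 12 moved by more and 2 turned sign. Counting each CpG once left 43 higher sites, turned the SELP difference to -1.88 points and took VWF to -7.74. Sites with a value in all cows gave 4 separated sites and differences of 47.4 points for F10, over its 4 higher sites only, and 8.36 for SELP. Leaving out sites where some cow was below 10% and another above 80% turned the ITGB3 difference to -25.1 points over the 8 sites left and moved the SELP difference to 28.8 points at 1 site, and no ITGA2B site was left. Deposited differences of at least 35 points left 81 members, with -4.97 points for VWF and 1.74 for SELP. Medians over sites gave 43.7 points for ITGB3, 19 for SELP, -22.5 for VWF and 39.8 for F10, and medians over cows gave -55.3 for ITGA2B and 8.35 for SELP. Within 20 points, 89.1% of strand pairs matched. Without 1 cow, separated sites numbered 8 to 22, with 22 without fertile cow 2 and 13 without subfertile cow 3 or fertile cow 5. Gene differences without 1 cow ran from 17.4 to 27.6 points for ITGB3, -40.4 to -22.5 for ITGA2B, 1.48 to 7.36 for SELP, -15.6 to -9.39 for VWF and 23.3 to 28.3 for F10. The causes of these shifts were not tested. Depth is unknown, so counting error could not be set beside any value. No paired analysis was possible because the cow numbers only name cows in accession order and the contrast was not tested.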
